A study of Danio rerio with 14 samples.

Results

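The genes described here carry a cell through mitosis, from entry, through the attachment of chromosomes to the spindle, to cytokinesis. They were chosen as a list of 58 symbols by function, of which 57 matched an Ensembl gene of the count tables, out of 32520 genes in the tables. The list was drawn up with earlier results of these data known. The study had already reported *cdk1*, *plk1*, *ccnb1*, *ccnb2* and *mki67* as higher at 7 dpt. The counts below therefore describe the list and are no independent test that mitotic genes rose. *incenp* was not analysed here. In hearts of zebrafish that overexpressed *il11a* (*il11a*OE), 56 of the 57 genes could be tested. All 56 were higher than in control at 7 days post tamoxifen treatment (7 dpt), where 20.2% of all genes tested were. At 7 months (7 mpt) 28 of the 56 were higher, with smaller fold changes, where 14.2% of all genes tested were. None of the 8 genes of cytokinesis passed there, which with so few genes is not far from that share. Under other settings up to 3 of them did, as with DESeq2, where 17.6% of all genes tested were higher. The remaining gene, *birc5b*, had too few counts for a test.

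The libraries were made from polyA RNA of pools of uninjured adult hearts, with 3 libraries of control and 3 of *il11a*OE at 7 dpt and 4 of each at 7 mpt. All fish had been bathed in 5 µM tamoxifen for 24 h and carried the transgene actb2:loxp-BFP-stop-loxp-il11a. The *il11a*OE fish also carried cmlc2:creER, so that recombination in cardiomyocytes removed the stop cassette and the *actb2* promoter then drove *il11a*. Controls were littermates without creER, so that an effect of creER itself cannot be told apart from that of *il11a*. By the study's methods each group had 3 pools, also at 7 mpt, where 4 libraries per group were given and used here. The descriptions of the 7 mpt libraries carry a letter, F for replicates 1 and 2 and M for replicates 3 and 4 of each group, whose meaning the sources used here do not give.

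Most cardiomyocytes of an adult zebrafish heart do not divide, and in the uninjured heart transcripts of mitosis are scarce. A cell enters mitosis when Cdk1 and its B-type cyclins become active, condensin and topoisomerase II compact the chromosomes, and kinetochores built on the centromeres bind spindle microtubules while a checkpoint holds back the protease separase. After the sister chromatids part, a bundle of microtubules in the spindle midzone and a contractile ring complete cytokinesis, a step that cardiomyocytes can leave out, which gives cells with more than one nucleus or with more DNA. In a heart pool, more cells with such transcripts and more transcript per cell cannot be told apart, and these libraries do not show which cell type held them. By staining, the study reported more PCNA-positive cardiomyocytes in uninjured *il11a*OE hearts than in control at the earlier time point. It also reported more cardiomyocytes positive for phospho-H3. How much of the transcripts came from such cardiomyocytes was not tested.

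At 7 dpt, where read pairs were counted, each library had between 61691132 and 80703699 counts on genes. At 7 mpt, where each mate was counted, each had between 73275884 and 130058630, about double the fragments. The induced *il11a* stood at 41.6 to 53.7 CPM (counts scaled to the size of the library) in control and 325 to 386 CPM in *il11a*OE at 7 dpt, and at 41.0 to 90.5 CPM and 262 to 433 CPM at 7 mpt, without overlap. Cell-type markers also moved with the groups. At 7 dpt the summed level of 6 cardiomyocyte markers was 47000 to 54400 CPM in control and 29700 to 35800 CPM in *il11a*OE, that of 5 epicardial markers 73.7 to 97 and 216 to 377 CPM, that of 3 macrophage markers 29.0 to 46.6 and 122 to 152 CPM, and that of 7 lymphocyte markers 1.37 to 2.1 and 6 to 12.2 CPM. At 7 mpt the same sums were 39900 to 58700 and 19200 to 27900 CPM, 193 to 370 and 604 to 817 CPM, 26.1 to 74.1 and 125 to 257 CPM, and 0.921 to 1.71 and 7.33 to 19.4 CPM. The sum of 5 endothelial and endocardial markers was lower, at 1050 to 1070 and 705 to 748 CPM at 7 dpt and 500 to 652 and 285 to 333 CPM at 7 mpt, and that of 2 neutrophil markers higher, at 32 to 35.5 and 52.7 to 62.7 CPM and at 27.1 to 42.5 and 58.8 to 121 CPM. The sum of 3 red cell markers was lower at 7 dpt, at 1620 to 3730 and 813 to 1270 CPM, and overlapped at 7 mpt, at 864 to 2740 and 799 to 3970 CPM. Most of the epicardial sum was *aldh1a2*, whose mean rose from 60.4 to 273 CPM at 7 dpt and from 238 to 604 CPM at 7 mpt. At 7 dpt *wt1b* also rose, from 2.33 to 10.8 CPM. The means of *tbx18*, *tcf21* and *upk3b* did not rise there, at 11.4 and 10.7, 9.6 and 5.7, and 0.591 and 0.128 CPM. Nearly all of the neutrophil sum at 7 dpt was *nccrp1*, at 33.6 and 57.6 CPM, with *lyz* at 0.137 and 0.148 CPM. No marker of these 7 lists was at 0 in every library of a time point. Of the first 4 lists, 4 cardiomyocyte markers were lower and 1 higher at each time point, and 2 epicardial, 3 macrophage and 5 lymphocyte markers were higher at 7 dpt and 2, 2 and 5 at 7 mpt, while the epicardial *tcf21* was lower at 7 dpt. Of the others, 2 endothelial and 3 red cell markers were lower and 1 neutrophil marker was higher at 7 dpt, and 4 endothelial markers were lower and 1 neutrophil marker was higher at 7 mpt. As a background, 20.2% of all genes tested were higher and 17.1% lower at 7 dpt, and 14.2% and 12.2% at 7 mpt. The part of these marker shifts in the changes of the mitotic genes was not tested.

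At 7 dpt the mitotic genes rose together. All 56 tested genes were higher in *il11a*OE at an adjusted p under 0.05 (edgeR's quasi-likelihood test, adjusted over 19647 genes), where 20.2% of all genes tested were higher and 37.2% changed in either direction. No gene of the list was lower. The median log2 fold change was 4.38, a 20.8-fold difference, against 0.02 over all genes. The groups did not overlap in any of the 56, with all *il11a*OE libraries on the higher side, which was so for 28.2% of all genes tested. Log2 changes are given below with their standard error after the ± sign. The largest changes were those of *prc1b* (5.98), *ccnb1* (5.92), *anln* (5.64) and *top2a* (5.63), and the smallest was that of *bub3* (1.20). The heat map of all 56 genes shows the 3 *il11a*OE libraries at one level. The median gene was 18.3, 22.8 and 21.2 times its control mean in replicates 1, 2 and 3, and 52 of the 56 genes were lowest in replicate 1.

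**Figure D1:**
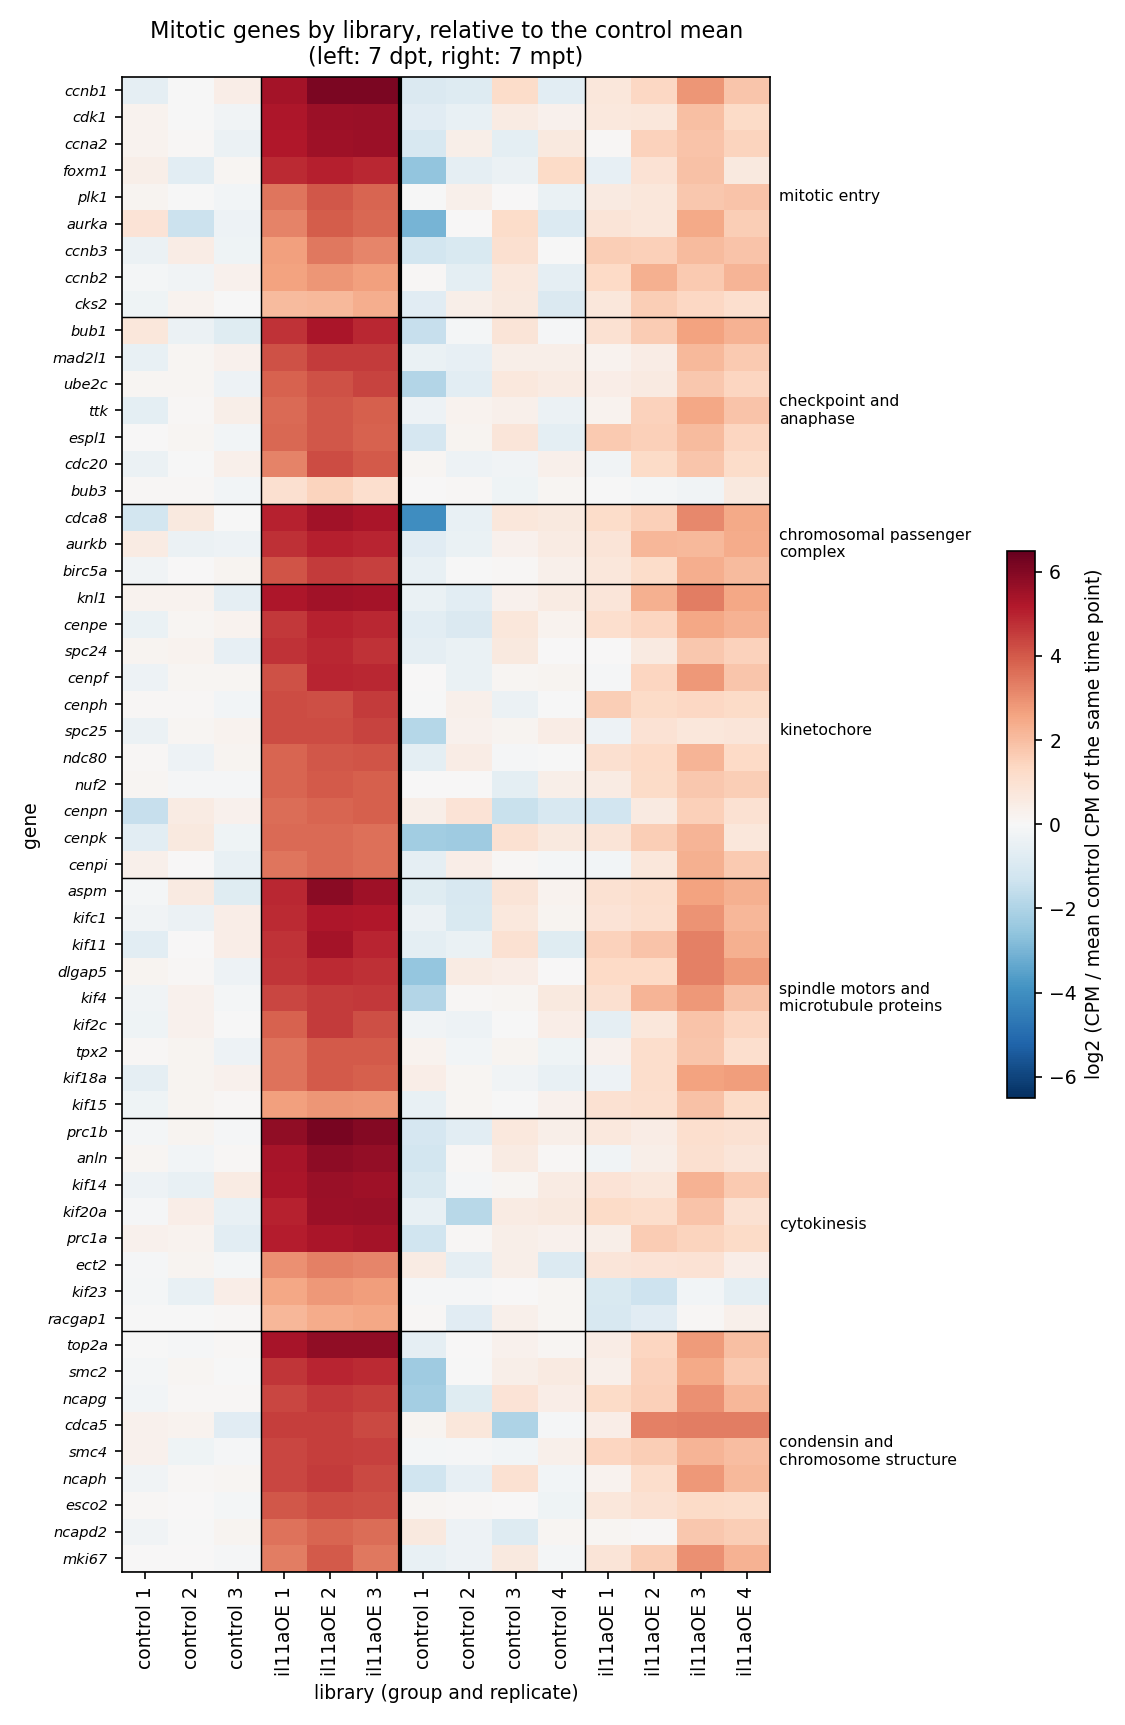
Heat map of the 56 tested mitotic genes (rows, grouped by step and ordered by their change at 7 dpt) in the 6 libraries of 7 dpt (left of the thick line) and the 8 of 7 mpt (right). Colour is the log2 ratio of a gene's CPM to its mean in the control libraries of the same time point. All rows are raised in the 7 dpt *il11a*OE libraries, with a median of 18.3 to 22.8 times the control mean, and the 7 mpt *il11a*OE libraries are paler and unequal.

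The mitotic genes were scarce in control hearts. Per exon length, their mean control level at 7 dpt ran from 0.0335 RPKM (*kif14*) to 2.16 RPKM (*bub3*), with a median of 0.171 RPKM, and in *il11a*OE from 0.608 to 33.6 RPKM, with a median of 3.28 RPKM. In counts, *aurka* had as few as 5 in a control library, so that fold changes of the scarcest genes rest on small control counts. With at least 10 counts required in every library, 45 of the genes remained and all 45 were higher. The order of the genes changed between the groups. In control *bub3*, *cks2* and *kif23* stood highest per length, at 2.16 ± 0.193, 1.31 ± 0.232 and 1.17 ± 0.387 RPKM (mean ± SD, n = 3), and the last of these did not differ from *cks2* beyond their spread. In *il11a*OE *cdk1* stood highest at 33.6 ± 4.15 RPKM, followed by *top2a* at 21.7 ± 3.51, *prc1b* at 17.2 ± 2.37 and *anln* at 16 ± 2.62 RPKM, of which the last 3 overlapped.

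At 7 mpt the difference was smaller and varied between the libraries. Of the same 56 genes, 28 were higher in *il11a*OE and none was lower (edgeR adjusted p under 0.05), where 14.2% of all genes tested were higher and 26.4% changed in either direction, and 44 had an unadjusted p under 0.05. The median log2 fold change was 1.5, a 2.83-fold difference, against 0.03 over all genes, and 54 of 56 fold changes were above 0. In scaled CPM the 4 *il11a*OE libraries lay wholly above the controls in 29 of the 56 genes (17% of all genes tested) and wholly below them in 1, *kif23* (13.8%). The genes with the smallest p were *smc4* (1.85, edgeR adjusted p = 0.000942), *kif15* (1.37, edgeR adjusted p = 0.00731), *mki67* (2.14, edgeR adjusted p = 0.00722), *kif11* (2.39, edgeR adjusted p = 0.00754), *knl1* (2.49, edgeR adjusted p = 0.00871) and *cenpe* (1.93, edgeR adjusted p = 0.0114), given here as log2 fold changes.

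One library weighed heavily on this count. *il11a*OE replicate 3 held the highest *il11a*OE level of 46 of the 56 genes, and its median gene was 4.24 times the control mean, against 1.63, 2.31 and 3.13 times in replicates 1, 2 and 4. It also had the highest lymphocyte marker sum of the 8 libraries, 19.4 CPM against 7.33 to 12.2 CPM in the other *il11a*OE libraries, and the highest neutrophil sum, 121 CPM against 58.8 to 118 CPM, while its macrophage sum, 179 CPM, lay within their range. Their part in its level was not tested. Without this library 9 genes were higher (10.6% of all genes tested in that fit) and the median log2 fold change was 1.17. The 9 were *smc4*, *kif15*, *mki67*, *kif11*, *knl1*, *cenpe*, *ndc80*, *top2a* and *aurkb*, all of them also among the 28. *kif23* was then lower. Without *il11a*OE replicate 4, 15 genes were higher, with the share over all genes not computed for that fit. Among controls, replicate 1 held the lowest level of 28 of the 56 genes, at a median of 0.668 times the control mean. The coefficient of variation between *il11a*OE libraries had a median of 47.5% over these genes, against 24.6% over all genes tested, and 42.0% against 29.5% between control libraries. At 7 dpt these medians were 12.3% against 12.2% in *il11a*OE and 20.1% against 14.2% in control.

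**Figure D2:**
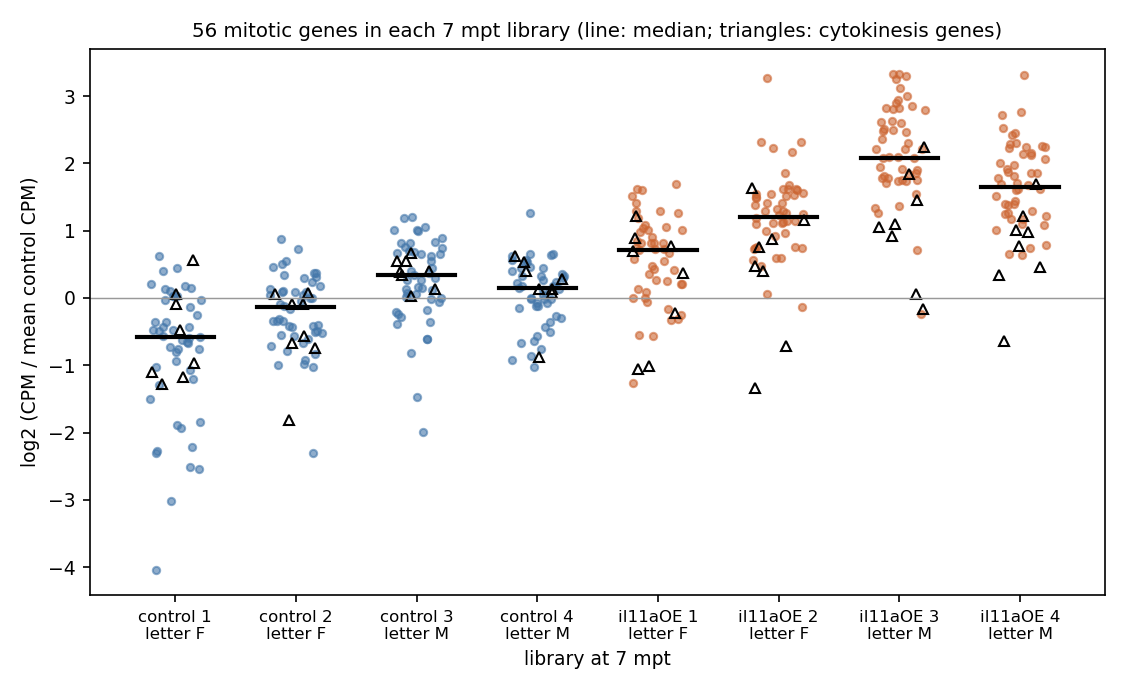
The 56 mitotic genes in each of the 8 libraries of 7 mpt, as the log2 ratio of CPM to the control mean (vertical axis). Each point is a gene, triangles are the 8 cytokinesis genes, and the black line is the library's median. The medians of *il11a*OE replicates 1 to 4 are 0.71, 1.21, 2.08 and 1.65, and in all 4 libraries the lowest triangles lie below the median, down to -1.33.

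The libraries of letter M stood above those of letter F in both groups, with control medians of 0.34 and 0.14 against -0.58 and -0.14 on the log2 scale. Within letter F, 2 genes were higher (*cenpe* and *kif11*, 4.61% of all genes), with a median log2 fold change of 1.34, and within letter M 25 were (9.69%), with a median of 1.68. The difference of the effect between the letters passed the threshold for none of the 56 genes in edgeR (0% of all genes tested), and for none with DESeq2. Unadjusted, 5 had a p under 0.05, where 6.38% of all genes tested had.

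The effect of *il11a*OE was smaller at 7 mpt than at 7 dpt in every one of the 56 genes by its estimate. In 39 it was so by the test of the difference itself (edgeR contrast over all 14 libraries, adjusted p under 0.05). That difference, 7 mpt minus 7 dpt, was called below 0 in 2.27% of all genes tested. The median difference was -2.79 on the log2 scale, against 0.01 over all genes. The smallest p were those of *esco2* (-3.12, edgeR adjusted p = 0.000206), *anln* (-5.07, edgeR adjusted p = 0.00022), *prc1b* (-5.14, edgeR adjusted p = 0.00022), *kif23* (-3.42, edgeR adjusted p = 0.000554), *smc4* (-2.58, edgeR adjusted p = 0.000808) and *cdk1* (-4.24, edgeR adjusted p = 0.000808). The 17 genes that did not pass included *ccnb2*, *ccnb3*, *cks2*, *mki67*, *cdca5*, *kif4* and *ncapg*. The count fell to 23 without control replicate 1 of 7 dpt, to 24 without control replicate 2 and to 25 without *il11a*OE replicate 2 or 3 of 7 dpt. The share over all genes was not computed for these fits. The tables of the time points were counted differently, so only the effects and not the levels were set against each other. Time after tamoxifen cannot be told apart here from other differences between the sets of libraries, such as the age of the fish. The study's results call the 7 dpt samples ventricles and those of 7 mpt hearts, while its methods call both hearts.

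**Figure D3:**
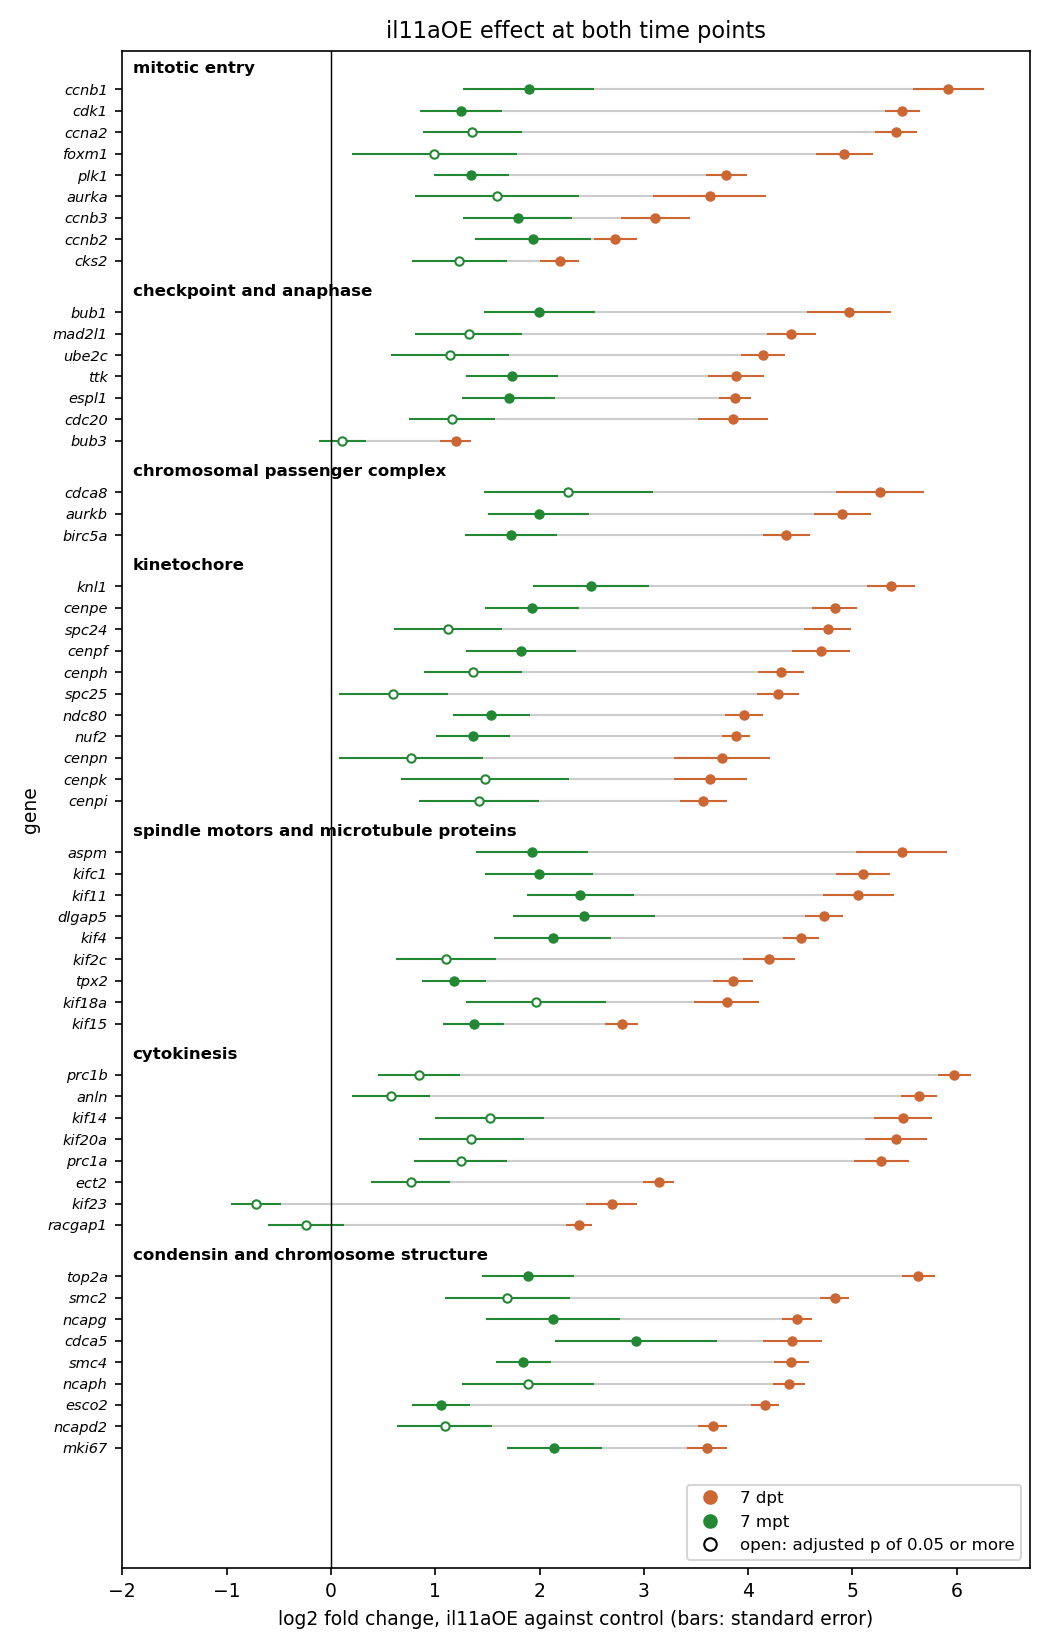
Log2 fold change of *il11a*OE against control (horizontal axis, bars are standard errors) for the 56 genes by step, at 7 dpt (orange) and 7 mpt (green), with open circles for an adjusted p of 0.05 or more. All orange points are filled, from 1.20 (*bub3*) to 5.98 (*prc1b*), and the green points run from -0.72 (*kif23*) to 2.93 (*cdca5*), with all 8 cytokinesis genes open.

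Of the genes of mitotic entry, all 9 rose at 7 dpt (median log2 fold change 3.79) and 5 at 7 mpt (median 1.36). Over all genes tested, 20.2% were higher at 7 dpt and 14.2% at 7 mpt. Each step holds few genes, so the counts by step here and below are descriptions. *cdk1* (ENSDARG00000087554, chromosome 17 from 20923691 to 20929461 on GRCz11), the kinase that drives the entry into mitosis, was at 1.19, 1.02 and 0.868 CPM in control and 39.4, 48.6 and 49.9 CPM in *il11a*OE at 7 dpt (log2 change 5.48 ± 0.17, edgeR adjusted p = 2.67e-05). No other gene of the list was as high per length in *il11a*OE. At 7 mpt *cdk1* was at 1.21, 1.45, 3 and 2.52 CPM in control and 3.24, 3.46, 7.88 and 4.77 CPM in *il11a*OE (log2 change 1.25 ± 0.39, edgeR adjusted p = 0.0417). The lowest *il11a*OE libraries were there only just above the highest control library. *cdk1* passed the threshold in 3 of the 8 fits that left out a library at 7 mpt.

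The 3 B-type cyclins, the partners that activate Cdk1, all rose at 7 dpt, and their fold changes were not tested against each other. *ccnb1* (ENSDARG00000051923, chromosome 5 from 54711027 to 54714789) was at 0.22, 0.329 and 0.451 CPM in control and 14.2, 23.3 and 23.2 CPM in *il11a*OE at 7 dpt (log2 change 5.92 ± 0.34, edgeR adjusted p = 0.000113). *ccnb2* was at 0.519, 0.485 and 0.701 CPM in control and 3.5, 4.16 and 3.66 CPM in *il11a*OE (log2 change 2.73 ± 0.21, edgeR adjusted p = 0.000254). *ccnb3*, whose exons overlap an opposite-strand gene over 5.88% of their length, was at 0.299, 0.537 and 0.317 CPM in control and 2.42, 4.12 and 3.44 CPM in *il11a*OE (log2 change 3.11 ± 0.33, edgeR adjusted p = 0.000862). The groups were apart in all 3. In control *ccnb2* stood highest of the 3 per length, at 0.337 RPKM against 0.141 for *ccnb1* and 0.0795 for *ccnb3*, and in *il11a*OE *ccnb1* did, at 8.57 RPKM against 2.23 and 0.689.

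At 7 mpt all 3 B cyclins were higher, but each passed the test in 2 of the 8 fits that left out a library, with *ccnb1* from 1.34 to 2.70 on the log2 scale. *ccnb1* was at 0.448, 0.482, 1.96 and 0.538 CPM in control and 1.41, 2.15, 6.17 and 3 CPM in *il11a*OE (log2 change 1.90 ± 0.62, edgeR adjusted p = 0.0498), and control replicate 3 lay above the lowest *il11a*OE library. *ccnb2* was at 0.179, 0.11, 0.268 and 0.113 CPM in control and 0.412, 0.833, 0.548 and 0.787 CPM in *il11a*OE (log2 change 1.94 ± 0.56, edgeR adjusted p = 0.028). *ccnb3* was at 0.224, 0.263, 1.07 and 0.509 CPM in control and 1.57, 1.5, 2.18 and 1.89 CPM in *il11a*OE (log2 change 1.79 ± 0.52, edgeR adjusted p = 0.0304). The last of these stood apart between the groups, as did *ccnb2*. The difference between the time points passed the test for *ccnb1* (-4.02, edgeR adjusted p = 0.0186) and not for *ccnb2* (-0.80, edgeR adjusted p = 0.449) or *ccnb3* (-1.32, edgeR adjusted p = 0.303).

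*cks2*, a small protein that binds Cdk1, changed least of this step at 7 dpt and had the step's highest control level per length. It was at 0.864, 1.23 and 1.02 CPM in control and 4.36, 4.55 and 5.37 CPM in *il11a*OE (log2 change 2.20 ± 0.19, edgeR adjusted p = 0.000393). At 7 mpt *cks2* was at 0.38, 0.833, 1.01 and 0.34 CPM in control and 1.06, 1.96, 1.64 and 1.35 CPM in *il11a*OE and did not pass the test (log2 change 1.23 ± 0.46, edgeR adjusted p = 0.075), although the groups did not overlap. The reference gives the same name to a second gene identifier, ENSDARG00000117089, which changed by 2.44 at 7 dpt (edgeR adjusted p = 0.000172) and 0.39 at 7 mpt (edgeR adjusted p = 0.502), and reads that map to both were not counted. Of the others, the cyclin *ccna2* rose by 5.42 at 7 dpt, *foxm1*, a transcription factor of late cell cycle genes with exon overlap over 15.3% of its length, by 4.92, and the kinases *plk1* and *aurka* by 3.79 and 3.63. At 7 mpt *plk1* passed the test (1.35, edgeR adjusted p = 0.021) and *ccna2* (1.35, edgeR adjusted p = 0.0622), *aurka* (1.59, edgeR adjusted p = 0.175) and *foxm1* (0.99, edgeR adjusted p = 0.416) did not.

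Of the 7 genes of the spindle checkpoint and of anaphase, all rose at 7 dpt (median log2 fold change 3.88) and 3 at 7 mpt (median 1.32). The shares over all genes tested were 20.2% and 14.2%, and 3 of 7 is a count of few genes. *bub1* (ENSDARG00000077029, chromosome 20 from 2610550 to 2641246), a checkpoint kinase at the kinetochore, changed most of this step, from 0.377, 0.173 and 0.134 CPM in control to 5.96, 8.97 and 6.79 CPM in *il11a*OE at 7 dpt (log2 change 4.97 ± 0.41, edgeR adjusted p = 0.000358). At 7 mpt *bub1* was at 0.201, 0.53, 1.01 and 0.538 CPM in control and 1.14, 1.81, 3.44 and 2.68 CPM in *il11a*OE (log2 change 2.00 ± 0.53, edgeR adjusted p = 0.0207). The groups did not overlap at either time point, and *bub1* passed in 5 of the 8 fits that left out a library at 7 mpt.

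*bub3* (ENSDARG00000075883, chromosome 12 from 49146715 to 49151326), the adaptor that brings Bub1 to the kinetochore, had the smallest change of all 56 genes and the highest control level per length. It was at 3.5, 3.57 and 3.02 CPM in control and 6.94, 9.09 and 7.13 CPM in *il11a*OE at 7 dpt (log2 change 1.20 ± 0.15, edgeR adjusted p = 0.00155). At 7 mpt *bub3* was at 5.89, 6.13, 4.75 and 6.31 CPM in control and 5.75, 5.28, 4.9 and 9 CPM in *il11a*OE (log2 change 0.11 ± 0.23, edgeR adjusted p = 0.784), and the groups overlapped. The fold change was below 0 within the letter F libraries (-0.12) and without *il11a*OE replicate 4 (-0.13). Per length *bub3* was 2.16 RPKM in control at 7 dpt and *bub1* 0.0586 RPKM, and in *il11a*OE they were 4.96 and 1.86 RPKM.

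The other checkpoint genes were *ttk*, the kinase that starts checkpoint signalling, which rose by 3.88 at 7 dpt and 1.74 (edgeR adjusted p = 0.0168) at 7 mpt, and *mad2l1*, an inhibitor of Cdc20, which rose by 4.41 at 7 dpt and was at 1.32 (edgeR adjusted p = 0.0889) at 7 mpt. Of the genes that carry out the exit, *cdc20*, the activator of the anaphase-promoting complex, rose by 3.86, *ube2c*, its ubiquitin-conjugating enzyme, by 4.14, and *espl1*, which encodes separase, by 3.87 at 7 dpt. Only *espl1* of these 3 passed the test at 7 mpt (1.71, edgeR adjusted p = 0.0188).

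The chromosomal passenger complex carries the kinase Aurora B along the chromosomes and later to the midzone. Its 3 tested genes all rose at 7 dpt (median log2 fold change 4.90) and 2 at 7 mpt (median 1.99). Among all genes tested 20.2% and 14.2% were higher. *cdca8* (ENSDARG00000043137, chromosome 19 from 47771659 to 47782916), which encodes borealin, was at 0.126, 0.451 and 0.284 CPM in control and 9.23, 12.7 and 11.2 CPM in *il11a*OE at 7 dpt (log2 change 5.27 ± 0.42, edgeR adjusted p = 0.000358). At 7 mpt *cdca8* was at 0.0224, 0.263, 0.624 and 0.566 CPM in control and 0.837, 1.07, 3.19 and 2.02 CPM in *il11a*OE (log2 change 2.28 ± 0.81, edgeR adjusted p = 0.0665). The groups did not overlap, but control replicate 1, with 2 counts, lay far below the other controls, and *cdca8* did not pass the test. *aurkb*, the kinase itself, rose by 4.90 at 7 dpt and by 1.99 (edgeR adjusted p = 0.0138) at 7 mpt.

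Survivin, which anchors the complex at the centromere, has a pair of genes in zebrafish, and the counts lay on one of them. *birc5a* (ENSDARG00000075621, chromosome 12 from 34429702 to 34435604) was at 0.189, 0.225 and 0.25 CPM in control and 3.75, 5.21 and 4.84 CPM in *il11a*OE at 7 dpt (log2 change 4.37 ± 0.22, edgeR adjusted p = 7.33e-05). At 7 mpt *birc5a* was at 0.403, 0.548, 0.594 and 0.708 CPM in control and 0.943, 1.28, 2.88 and 2.36 CPM in *il11a*OE (log2 change 1.73 ± 0.44, edgeR adjusted p = 0.0163). *birc5b* (ENSDARG00000055655, chromosome 23 from 28322986 to 28325846) had 0, 0 and 1 counts in control and 2, 0 and 7 in *il11a*OE at 7 dpt, and 0 counts in all 8 libraries at 7 mpt. A count of 0 allows up to 3 fragments, which at 7 mpt, where each mate was counted, are 6 counts or 0.0399 to 0.0892 CPM, for counting error only. So *birc5b* was not detectable at this depth at 7 mpt, while *birc5a* was counted in every library.

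The 11 kinetochore genes all rose at 7 dpt (median log2 fold change 4.29) and 5 of them at 7 mpt (median 1.42). Beside these counts, 20.2% and 14.2% of all genes tested were higher. *knl1* (ENSDARG00000070239, chromosome 1 from 11086957 to 11104805), the scaffold that ties the microtubule-binding part of the kinetochore to the checkpoint, changed most at 7 dpt, from 0.267, 0.26 and 0.15 CPM in control to 8.61, 10.01 and 9.62 CPM in *il11a*OE (log2 change 5.37 ± 0.23, edgeR adjusted p = 5.15e-05). At 7 mpt *knl1* was at 0.291, 0.241, 0.475 and 0.566 CPM in control and 0.691, 1.96, 3.93 and 2.26 CPM in *il11a*OE (log2 change 2.49 ± 0.55, edgeR adjusted p = 0.00871), without overlap. It passed the test in each of the 8 fits that left out a library at 7 mpt.

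*cenpe*, a kinesin that moves chromosomes to the middle of the spindle, was at 0.692, 1.04 and 1.08 CPM in control and 22.7, 29.8 and 27.7 CPM in *il11a*OE at 7 dpt (log2 change 4.83 ± 0.21, edgeR adjusted p = 5.42e-05). At 7 mpt *cenpe* was at 0.94, 0.789, 2.5 and 1.75 CPM in control and 3.17, 3.98, 8.47 and 7.11 CPM in *il11a*OE (log2 change 1.93 ± 0.45, edgeR adjusted p = 0.0114). The groups were apart at both time points. *cenpe* was one of the 2 genes that passed within the letter F libraries alone, where 4.61% of all genes tested were higher. *cenpi*, a subunit of the inner kinetochore at the centromere, changed least of this step, from 0.629, 0.52 and 0.367 CPM in control to 5.59, 6.47 and 6.04 CPM in *il11a*OE at 7 dpt (log2 change 3.57 ± 0.22, edgeR adjusted p = 0.000127). At 7 mpt *cenpi* was at 0.269, 0.548, 0.416 and 0.368 CPM in control and 0.359, 0.666, 1.97 and 1.3 CPM in *il11a*OE (log2 change 1.42 ± 0.57, edgeR adjusted p = 0.1), and *il11a*OE replicate 1 lay within the controls.

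The 4 genes of the NDC80 complex, the rod that grips the microtubule, can be set against each other per length. *nuf2* had the highest control level of all 11 kinetochore genes and was at 0.88, 0.746 and 0.751 CPM in control and 10.8, 12.6 and 11.8 CPM in *il11a*OE at 7 dpt (log2 change 3.89 ± 0.14, edgeR adjusted p = 3.16e-05). In RPKM, *nuf2*, *ndc80*, *spc24* and *spc25* had control means of 0.479, 0.255, 0.182 and 0.0641 at 7 dpt and *il11a*OE means of 7.11, 3.98, 4.98 and 1.26. *spc25* was lowest in both groups, and its annotated exons, at 5193 bases, were the longest of the 4 and overlap an opposite-strand gene, so its level per length is uncertain. At 7 mpt *nuf2* was at 1.12, 1.09, 0.713 and 1.44 CPM in control and 1.59, 2.59, 3.69 and 3.34 CPM in *il11a*OE (log2 change 1.36 ± 0.35, edgeR adjusted p = 0.0187). *ndc80* also passed the test at 7 mpt (1.54, edgeR adjusted p = 0.0125), and *spc24* (1.12, edgeR adjusted p = 0.146) and *spc25* (0.60, edgeR adjusted p = 0.464) did not. Whether the 4 subunits differ in their change was not tested.

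The inner kinetochore genes *cenph*, *cenpk* and *cenpn* rose by 4.32, 3.64 and 3.75 at 7 dpt and *cenpf*, a large protein of the outer kinetochore, by 4.70. At 7 mpt *cenpf* passed the test (1.82, edgeR adjusted p = 0.03), and all 4 genes of the inner kinetochore did not, with log2 fold changes from 0.77 to 1.48 and as few as 6 control counts (*cenpk*). *cenph* did not overlap between the groups at 7 mpt (1.36, edgeR adjusted p = 0.0579).

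**Figure D4:**
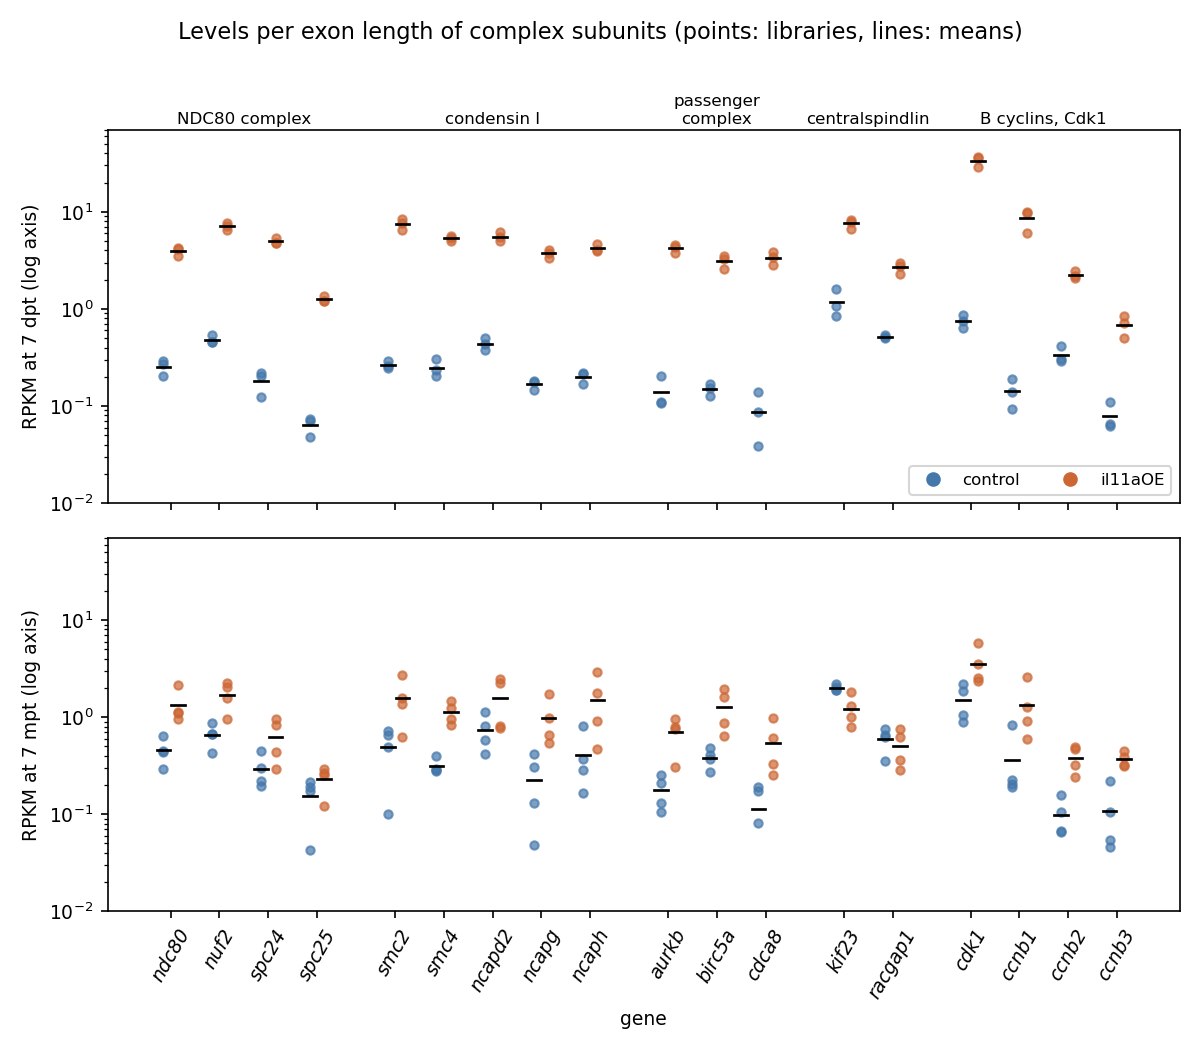
Levels per exon length (RPKM, log axis) of the subunits of the NDC80 complex, condensin I, the chromosomal passenger complex and centralspindlin and of *cdk1* with its B cyclins, at 7 dpt (top) and 7 mpt (bottom). Points are libraries, blue control and orange *il11a*OE, and lines are means. At 7 dpt no pair of groups overlaps and *cdk1* reaches 33.6 RPKM. At 7 mpt, after scaling, *kif23* is the one gene with *il11a*OE below control in every library, at 1.22 against 2.01 RPKM.

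All 9 genes of spindle motors and microtubule proteins rose at 7 dpt (median log2 fold change 4.51), and 7 at 7 mpt (median 1.97). Over all genes tested the shares were 20.2% and 14.2%. *aspm* (ENSDARG00000103754, chromosome 22 from 23546926 to 23582605), which focuses microtubules at the spindle poles, changed most, from 0.393, 0.659 and 0.25 CPM in control to 12.8, 25.1 and 19.9 CPM in *il11a*OE at 7 dpt (log2 change 5.47 ± 0.43, edgeR adjusted p = 0.000379). At 7 mpt *aspm* was at 0.515, 0.438, 1.57 and 1.05 CPM in control and 1.77, 1.94, 5.46 and 4.4 CPM in *il11a*OE (log2 change 1.93 ± 0.53, edgeR adjusted p = 0.0243). The letter M libraries were highest in each group, and *aspm* passed in 4 of the 8 fits that left out a library at 7 mpt. *tpx2*, a microtubule nucleator and activator of Aurora A, had the highest control level per length of this step and shares 2.36% of its exon length with *mylk2* on the same strand. It was at 1.98, 2.1 and 1.5 CPM in control and 21.7, 29.6 and 29.4 CPM in *il11a*OE at 7 dpt (log2 change 3.85 ± 0.19, edgeR adjusted p = 7.08e-05), and at 3.69, 2.87, 3.6 and 2.66 CPM in control and 3.87, 7.05, 11.2 and 6.83 CPM in *il11a*OE at 7 mpt (log2 change 1.18 ± 0.31, edgeR adjusted p = 0.0187).

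A pair of motors push the spindle poles apart. *kif11* (ENSDARG00000010948, chromosome 17 from 19481049 to 19497006), the main one, was at 0.314, 0.52 and 0.684 CPM in control and 13.3, 21.6 and 15.7 CPM in *il11a*OE at 7 dpt (log2 change 5.06 ± 0.34, edgeR adjusted p = 0.000194). At 7 mpt *kif11* was at 0.873, 1.01, 2.7 and 0.792 CPM in control and 3.84, 4.89, 12.8 and 6.59 CPM in *il11a*OE (log2 change 2.39 ± 0.52, edgeR adjusted p = 0.00754), with the highest library of each group in replicate 3. *kif15* (ENSDARG00000012073, chromosome 25 from 35068166 to 35095129), which can stand in for it, changed least of this step at 7 dpt, from 1.01, 1.35 and 1.28 CPM in control to 7.77, 8.94 and 8.44 CPM in *il11a*OE (log2 change 2.79 ± 0.16, edgeR adjusted p = 9.34e-05). At 7 mpt *kif15* was at 1.12, 1.67, 1.54 and 1.87 CPM in control and 3.12, 3.31, 5.86 and 3.71 CPM in *il11a*OE (log2 change 1.37 ± 0.29, edgeR adjusted p = 0.00731). Both passed the test in all 8 fits that left out a library at 7 mpt. The difference of the effect between the time points was -1.43 (edgeR adjusted p = 0.0461) for *kif15* and -2.66 for *kif11* (edgeR adjusted p = 0.05, just under the threshold before rounding), and these calls held in 2 and 3 of 14 fits with a library removed.

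The other motors were *kif4*, a kinesin on chromosomes, which rose by 4.51 at 7 dpt and 2.13 (edgeR adjusted p = 0.0196) at 7 mpt, and the minus-end motor *kifc1*, which rose by 5.10 and 2.00 (edgeR adjusted p = 0.0176). *dlgap5*, a protein of spindle microtubules near the chromosomes with exon overlap over 10.6% of its length, rose by 4.73 and 2.43 (edgeR adjusted p = 0.0259). The microtubule depolymerase *kif2c* and *kif18a*, which limits chromosome movements, rose by 4.20 and 3.79 at 7 dpt and did not pass the test at 7 mpt with 1.1 (edgeR adjusted p = 0.126) and 1.97 (edgeR adjusted p = 0.0561).

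The 8 cytokinesis genes had the largest median log2 fold change of the 7 steps at 7 dpt, 5.35, against 4.34 over the other 48 genes, and the smallest at 7 mpt, 0.80, against 1.70. All 8 rose at 7 dpt. At 7 mpt none passed the test, where 14.2% of all genes tested were higher, 4 had an unadjusted p under 0.05, and 6 fold changes were above 0. With so few genes, 0 of 8 is not far from that background. The effect was smaller at 7 mpt for all 8 by the test of the difference, with a median of -4.01, against 31 of the other 48 genes, with a median of -2.67. These medians are descriptions, and the steps were not tested against each other. With DESeq2 3 of the 8 passed as higher at 7 mpt, *kif14*, *kif20a* and *prc1a*, where 17.6% of all genes tested were. The same 3 passed with all 14 libraries in one fit, and *kif14*, *kif20a* and *prc1b* did with the letter as a covariate.

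Centralspindlin, a complex of the motor Kif23 and the GTPase-activating protein Racgap1, bundles midzone microtubules and places the contractile ring, and its genes were the 2 of the 56 with a fold change below 0 at 7 mpt. *kif23* (ENSDARG00000014943, chromosome 18 from 20435821 to 20458840) had the highest control level per length of this step and was at 5.26, 4.16 and 7.86 CPM in control and 32.7, 40.8 and 38.2 CPM in *il11a*OE at 7 dpt (log2 change 2.69 ± 0.24, edgeR adjusted p = 0.000576). At 7 mpt *kif23* was at 9.29, 9.24, 10.1 and 10.9 CPM in control and 4.92, 3.92, 8.81 and 6.32 CPM in *il11a*OE (log2 change -0.72 ± 0.24, edgeR adjusted p = 0.0536). In scaled CPM the *il11a*OE libraries were thus all above the controls at 7 dpt and all below them at 7 mpt, where the test fell short of the threshold. The scaling factors at 7 mpt were 0.77 to 0.91 in control and 1.11 to 1.35 in *il11a*OE, which lowers *il11a*OE against control. By total counts alone, *il11a*OE replicate 3 (1126 of 107366302) lay above the controls (680 to 844 of 87358547 to 105489597). The separation at 7 mpt therefore depends on the scaling. *kif23* passed as lower in 5 of 10 other settings, DESeq2 among them, and without *il11a*OE replicate 3 (-0.98, edgeR adjusted p = 0.0124). The range over all 18 was 0.0124 to 0.272. The change between the time points passed the test in all 14 fits that left out a library (-3.42, edgeR adjusted p = 0.000554).

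*racgap1* (ENSDARG00000015460, chromosome 23 from 33757173 to 33775309), of whose exon length 21.1% overlaps opposite-strand genes, changed least of this step at 7 dpt, from 3.17, 3.09 and 3.32 CPM in control to 14.3, 17.3 and 18.3 CPM in *il11a*OE (log2 change 2.38 ± 0.12, edgeR adjusted p = 7.52e-05). At 7 mpt *racgap1* was at 3.85, 2.19, 4.67 and 4.02 CPM in control and 1.77, 2.24, 3.84 and 4.65 CPM in *il11a*OE and the groups overlapped (log2 change -0.24 ± 0.36, edgeR adjusted p = 0.696). The sign of this small change also depends on the scaling. The change between the time points was -2.63 (edgeR adjusted p = 0.00681). *ect2*, whose product centralspindlin brings to the cell equator, rose by 3.14 at 7 dpt and was at 0.77 (edgeR adjusted p = 0.176) at 7 mpt, so these 3 genes also had the smallest changes of the step at 7 dpt.

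**Figure D5:**
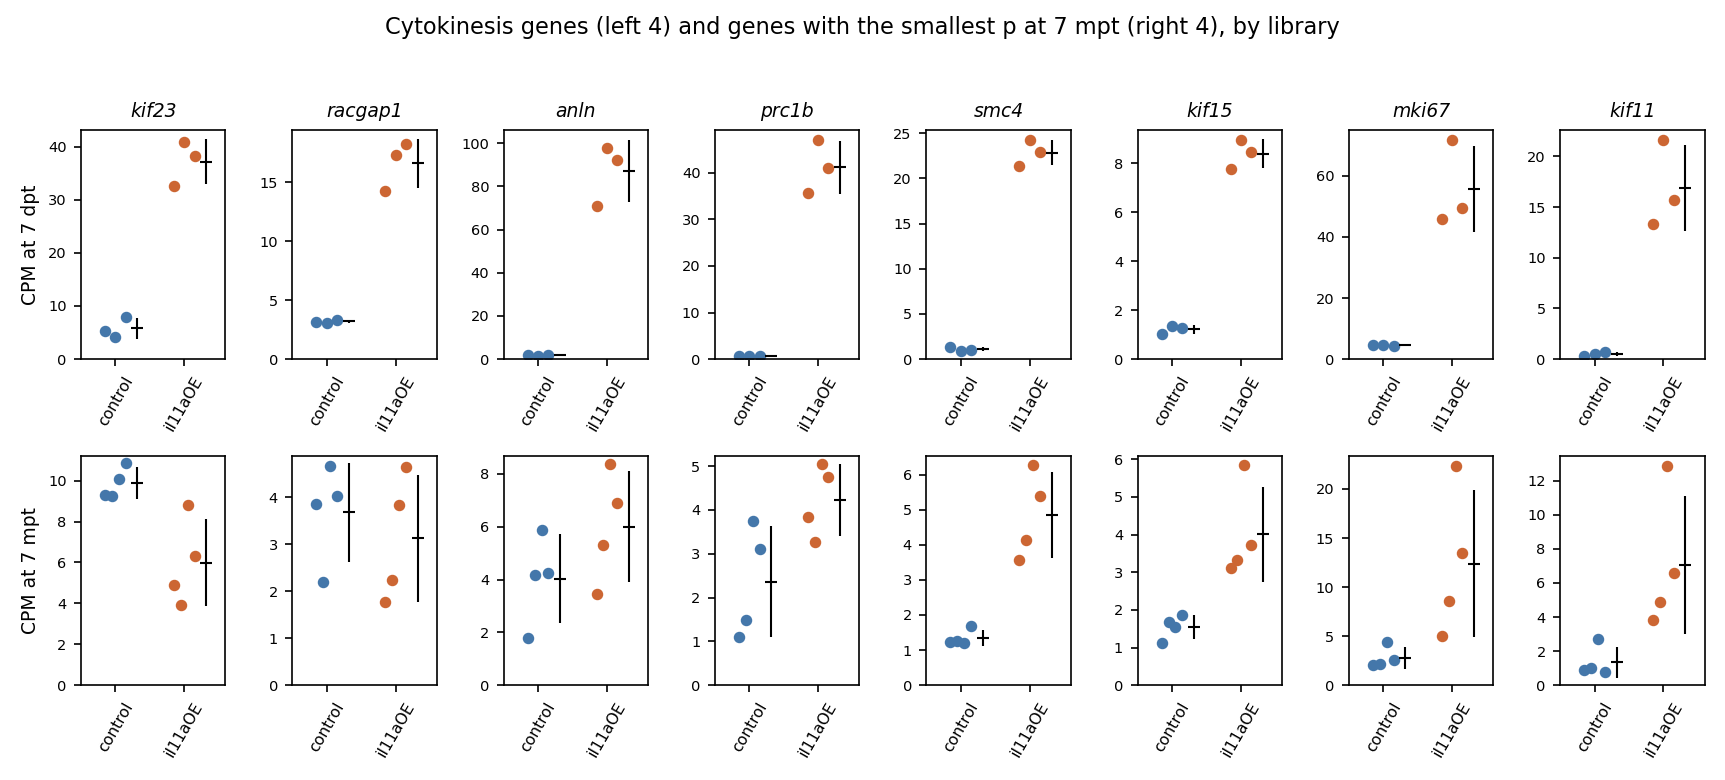
CPM (vertical axes, each from 0) of 4 cytokinesis genes and of the 4 genes with the smallest p at 7 mpt, at 7 dpt (top) and 7 mpt (bottom). Points are libraries in the order of their number, bars are the mean and SD of a group. At 7 dpt all 8 are higher in *il11a*OE. At 7 mpt, after scaling, *kif23* is lower in every *il11a*OE library, at 3.92 to 8.81 against 9.24 to 10.9 CPM. There *racgap1*, *anln* and *prc1b* overlap, and the right 4 do not.

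*anln* (ENSDARG00000060917, chromosome 19 from 35433155 to 35450857), which encodes anillin, a scaffold of the contractile ring, was at 1.89, 1.53 and 1.82 CPM in control and 71, 98 and 92.4 CPM in *il11a*OE at 7 dpt (log2 change 5.64 ± 0.17, edgeR adjusted p = 2.67e-05). At 7 mpt *anln* was at 1.79, 4.18, 5.88 and 4.25 CPM in control and 3.47, 5.29, 8.36 and 6.88 CPM in *il11a*OE (log2 change 0.58 ± 0.38, edgeR adjusted p = 0.311), and *il11a*OE replicates 1 and 2 lay within the controls. Its change between the time points (-5.07, edgeR adjusted p = 0.00022) was called in all 14 fits that left out a library.

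Prc1 cross-links the antiparallel microtubules of the midzone, and zebrafish have a pair of genes for it. *prc1b* (ENSDARG00000005993, chromosome 7 from 50353297 to 50367642) had the largest change of all 56 genes at 7 dpt, from 0.597, 0.746 and 0.617 CPM in control to 35.7, 47 and 41 CPM in *il11a*OE (log2 change 5.98 ± 0.16, edgeR adjusted p = 2.42e-05). *prc1a* (ENSDARG00000100918, chromosome 25 from 7435291 to 7461466) was at 0.361, 0.347 and 0.183 CPM in control and 10.2, 12 and 12.7 CPM in *il11a*OE (log2 change 5.28 ± 0.27, edgeR adjusted p = 7.08e-05). Per length *prc1b* was the higher of the pair, at 0.273 and 0.0643 RPKM in control and 17.2 and 2.51 RPKM in *il11a*OE. The annotated exons of *prc1a* are 4624 bases long and those of *prc1b* 2391, which lowers *prc1a* per length, so the size of this gap depends on the annotation. In CPM *prc1b* was also the higher in every library.

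At 7 mpt *prc1b* was at 1.1, 1.49, 3.75 and 3.11 CPM in control and 3.84, 3.28, 5.04 and 4.75 CPM in *il11a*OE (log2 change 0.84 ± 0.39, edgeR adjusted p = 0.151). *prc1a* was at 0.336, 0.854, 1.07 and 0.991 CPM in control and 1.05, 2.52, 2.24 and 1.89 CPM in *il11a*OE (log2 change 1.25 ± 0.44, edgeR adjusted p = 0.0662). In both the lowest *il11a*OE library lay below the highest control library, and the change between the time points was -5.14 (edgeR adjusted p = 0.00022) for *prc1b* and -4.05 (edgeR adjusted p = 0.00242) for *prc1a*. The midzone and midbody kinesins *kif20a*, 24.3% of whose exon length overlaps *cdc23* on the opposite strand, and *kif14* rose by 5.42 and 5.48 at 7 dpt. At 7 mpt they were at 1.34 (edgeR adjusted p = 0.0778) and 1.52 (edgeR adjusted p = 0.0579) and the groups did not overlap.

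The 9 genes of chromosome compaction and cohesion all rose at 7 dpt (median log2 fold change 4.41), and 6 at 7 mpt (median 1.89). Among all genes tested 20.2% and 14.2% were higher. *top2a* (ENSDARG00000024488, chromosome 12 from 10706772 to 10740236), the topoisomerase that untangles sister chromatids, changed most, from 2.39, 2.32 and 2.55 CPM in control to 97.7, 132 and 131 CPM in *il11a*OE at 7 dpt (log2 change 5.63 ± 0.16, edgeR adjusted p = 2.42e-05). At 7 mpt *top2a* was at 2.31, 3.57, 4.25 and 3.76 CPM in control and 4.81, 9.05, 24 and 13.6 CPM in *il11a*OE (log2 change 1.89 ± 0.44, edgeR adjusted p = 0.0118). The groups did not overlap, and *il11a*OE replicate 1 stood closest to the controls. *mki67* (ENSDARG00000091150, chromosome 12 from 10366617 to 10381282), which encodes the Ki-67 antigen that coats mitotic chromosomes and is used to mark cycling cells, changed least of this step at 7 dpt and had its highest control level per length, at 4.68, 4.65 and 4.36 CPM in control and 45.9, 71.8 and 49.4 CPM in *il11a*OE (log2 change 3.61 ± 0.19, edgeR adjusted p = 8.54e-05). At 7 mpt *mki67* was at 2.01, 2.21, 4.43 and 2.58 CPM in control and 5.06, 8.63, 22.4 and 13.5 CPM in *il11a*OE (log2 change 2.14 ± 0.45, edgeR adjusted p = 0.00722). The effect on *mki67* was not shown to differ between the time points (-1.47, edgeR adjusted p = 0.173).

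Condensin I holds chromatin loops through the ring of Smc2 and Smc4 and the subunits Ncapd2, Ncapg and Ncaph. *smc4* (ENSDARG00000038882, chromosome 15 from 1534644 to 1573129) had the smallest p of all 56 genes at 7 mpt. It was at 1.3, 0.884 and 1.02 CPM in control and 21.4, 24.2 and 22.9 CPM in *il11a*OE at 7 dpt (log2 change 4.41 ± 0.17, edgeR adjusted p = 3.16e-05). At 7 mpt *smc4* was at 1.23, 1.27, 1.19 and 1.7 CPM in control and 3.57, 4.15, 6.28 and 5.38 CPM in *il11a*OE (log2 change 1.85 ± 0.27, edgeR adjusted p = 0.000942), where the lowest *il11a*OE library was above the highest control library by more than the whole range of the controls. *smc2*, *ncapd2*, *ncapg* and *ncaph* rose by 4.83, 3.66, 4.47 and 4.39 at 7 dpt. In RPKM the 5 subunits had *il11a*OE means from 3.73 (*ncapg*) to 7.54 (*smc2*) and control means from 0.168 to 0.439 (*ncapd2*). At 7 mpt *ncapg* passed the test (2.13, edgeR adjusted p = 0.0345), and *smc2* (1.69, edgeR adjusted p = 0.0665), *ncaph* (1.89, edgeR adjusted p = 0.0527) and *ncapd2* (1.09, edgeR adjusted p = 0.114) did not.

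*esco2*, the enzyme that acetylates cohesin so that sister chromatids stay together, had the smallest p for the difference between the time points. It was at 0.629, 0.607 and 0.534 CPM in control and 9.68, 11.1 and 10.9 CPM in *il11a*OE at 7 dpt (log2 change 4.16 ± 0.14, edgeR adjusted p = 2.67e-05). At 7 mpt *esco2* was at 1.23, 1.18, 1.13 and 0.906 CPM in control and 1.85, 2.22, 2.68 and 2.51 CPM in *il11a*OE (log2 change 1.05 ± 0.27, edgeR adjusted p = 0.0181), so that it rose at both time points, with little spread, and by less at 7 mpt. *cdca5*, which encodes sororin, a protector of cohesin, rose by 4.42 at 7 dpt and by 2.93 (edgeR adjusted p = 0.0206) at 7 mpt. This was the largest change of the list at 7 mpt, on control levels that reached down to 2 counts. The groups overlapped there, with the lowest *il11a*OE library at 0.0963 RPKM and the highest control library at 0.119 RPKM.

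Other genes of mitosis, from a second list of 138 symbols of the same steps of which 114 matched, were also mostly higher at 7 dpt. At 7 dpt 73 of 112 tested were higher and 4 lower, against 20.2% and 17.1% of all genes tested, with a median log2 fold change of 1.57. At 7 mpt 19 of 113 were higher, a share near the 14.2% of all genes, and 4 were lower, against 12.2%, with a median of 0.40. The largest changes at 7 dpt were those of *sgo2*, a protector of centromeric cohesion (5.76, edgeR adjusted p = 0.000113), *cdca3* (5.56, edgeR adjusted p = 0.000203) and *gtse1* (5.48, edgeR adjusted p = 0.000113). The 4 that fell were *septin7a*, a septin filament subunit (-0.55, edgeR adjusted p = 0.0206), *pkmyt1*, an inhibitory kinase of Cdk1 (-0.45, edgeR adjusted p = 0.0262), *ska2* of the outer kinetochore (-0.30, edgeR adjusted p = 0.0392) and *cdc26* of the anaphase-promoting complex (-0.25, edgeR adjusted p = 0.0368). Of the kinetochore genes of this list 17 of 19 were higher at 7 dpt, and of those of the checkpoint and the anaphase-promoting complex 15 of 27, a difference that was not tested. The difference of the effects, 7 mpt minus 7 dpt, was called below 0 in 31 of these genes and above 0 in none, of 114 tested. Of all genes tested, 2.27% and 2.14% were called so. A difference below 0 is not always a smaller effect. *anapc4* went from 0.24 (edgeR adjusted p = 0.136) at 7 dpt to -0.48 (edgeR adjusted p = 0.0391) at 7 mpt.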

How the data were processed

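RNA-seq libraries of control and *il11a*OE zebrafish hearts at 7 dpt (3 per group) and 7 mpt (4 per group) were grouped from the labels. The authors aligned reads to GRCz11 with HISAT2 and counted them on the exons of Ensembl release 104 genes with featureCounts 2.0.0, without strand and without reads that map to several places or genes. The authors deposited raw counts, 1 value per gene and library, beside the exon length. At 7 dpt the authors counted read pairs and at 7 mpt each mate, so counts of 7 mpt are about double the fragments, levels were compared only within a time point, and halved counts were an alternative. Intervals and floors cover counting error only. P-values measure the spread between libraries, each a pool. Genes with overlapping exons lose reads under this counting, and without the 12 genes with such overlap 44 of 44 tested were higher at 7 dpt and 22 of 44 at 7 mpt.

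From the deposited counts, genes were filtered with filterByExpr, scaled with TMM and tested by the quasi-likelihood method of edgeR 4.0.16 (robust option, with limma 3.58.1 and R 4.3.3), separately for each time point, with Benjamini-Hochberg adjustment over all genes and a threshold of 0.05. The effect of time was tested as a contrast over 14 libraries and that of the letter over the 8 of 7 mpt. CPM used the scaled library sizes, and RPKM was CPM per 1000 bases of exon. The test was checked on simulated counts. Replicates differed by more than counting noise (chi-square per degree of freedom 52.9 to 370.1). Alternatives were DESeq2 1.42.0, its size factors in edgeR, other filters (1 count, or 10 in every library), all 14 libraries in one fit, the letter, the replicate block and each library left out. The members and lists were chosen with earlier results of these data known. Genes given with the value of every library were, for each step, those with the largest and smallest change and the highest control level per length at 7 dpt, gene pairs of a family, genes not called at 7 dpt, and the 6 with the smallest p at 7 mpt and for the time contrast. Symbols were matched through the reference names, and for *kif4*, *prc1a*, *prc1b* and *birc5a* through the study's annotation. Some symbols of the second list and of the markers, *septin7a* among them, were matched through a human symbol of the reference. Their paralog letter is therefore assumed.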

Additional observations from a re-analysis of the deposited data

Results flagged for a closer look

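The *il11a*OE effect differed between 7 dpt and 7 mpt by the edgeR contrast in 39 of the 56 genes, and in all 39 it was smaller at 7 mpt. On the log2 scale the difference of the effects was -4.02 for *ccnb1* and -4.24 for *cdk1* among the genes of mitotic entry and -2.98 for the checkpoint kinase *bub1*. It was -2.65 for *birc5a*, -2.88 for *knl1*, -2.54 for *nuf2* and -2.90 for *cenpe*. For the motors and spindle proteins it was -3.54 for *aspm*, -1.43 for *kif15*, -2.68 for *tpx2* and -2.66 for *kif11*. The cytokinesis genes *prc1b*, *anln*, *prc1a*, *kif23* and *racgap1* had differences of -5.14, -5.07, -4.05, -3.42 and -2.63. For *top2a*, *esco2* and *smc4* the differences were -3.74, -3.12 and -2.58.

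Single libraries lay far from the other 3 of their group at 7 mpt in 5 of 112 groups of 4 libraries examined, about the 1 in 20 that chance gives. In control, *ccnb1* was at 1.96 CPM in replicate 3 against 0.448 to 0.538 CPM in the others. *kif11* was at 2.70 CPM in the same library against 0.792 to 1.01 CPM. *smc4* was at 1.70 CPM in control replicate 4 against 1.19 to 1.27 CPM. In *il11a*OE, *ndc80* was at 4.90 CPM in replicate 3 against 2.19 to 2.58 CPM, and *cdca5* at 0.159 CPM in replicate 1 against 1.15 to 1.19 CPM.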

How the results depend on the processing

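At 7 dpt every alternative called all genes tested as higher except that without a filter 56 of 57 were. With a library left out the median log2 fold change at 7 dpt stayed between 4.32 and 4.42. At 7 mpt the number of higher genes was 43 with all 14 libraries in one fit, 40 with DESeq2 (17.6% of all genes tested) and 36 with the letter as a covariate. It was 2 in the letter F libraries (4.61%) and from 9 (10.6%, without *il11a*OE replicate 3) to 35 with a library left out. For the counts without a percentage the share over all genes was not computed, so they are not read as a result about these genes. The median log2 fold change was 1.17 to 1.68 with a library left out. *kif23* was the 1 gene called lower with DESeq2, with all 14 libraries, with halved counts, with the letter and with the replicate block, and 0 to 1 were with a library left out. *bub3* changed sign in the letter F libraries (-0.12) and without *il11a*OE replicate 4 at 7 mpt, where leaving out a library gave -0.13 to 0.19. The cause was not tested. The time contrast called 23 to 44 genes with a library left out, and 47 with DESeq2, with the share over all genes not computed for these fits. The median of the letter contrast was 0.02 to 0.59 with a library left out.

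The replicate numbers were not taken to pair the samples. Same-numbered libraries deviated together with correlations of -0.02 to 0.17 at 7 dpt and -0.04 to 0.06 at 7 mpt, and 1 of 3 and 1 of 4 *il11a*OE libraries correlated best with its own number. With the replicate block 56 genes were higher at 7 dpt and 28 at 7 mpt, 22 of them shared with the fit without it, and 1 was lower. The share over all genes with the block was not computed. For the genes described by library, leaving out a library at 7 mpt ended a call 37 times and gave one 4 times.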

Other observations

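Some genes of the second list, picked here after their values were seen, had like fold changes at both time points. *wee1* and *wee2*, kinases that hold Cdk1 inactive, changed by 1.48 (edgeR adjusted p = 8.46e-05) and 2.34 (edgeR adjusted p = 0.00067) at 7 dpt and by 1.77 (edgeR adjusted p = 0.00113) and 2.46 (edgeR adjusted p = 0.00268) at 7 mpt. *cdc25b*, the phosphatase that activates Cdk1, changed by 2.36 (edgeR adjusted p = 0.000893) and 1.98 (edgeR adjusted p = 0.000407). The differences between the time points did not pass the test, at 0.28 (edgeR adjusted p = 0.698), 0.10 (edgeR adjusted p = 0.95) and -0.39 (edgeR adjusted p = 0.612), while that of *cdk1* was -4.24 (edgeR adjusted p = 0.000808). *septin7a* and *ska2* were lower at both time points, *septin7a* at -0.55 (edgeR adjusted p = 0.0206) and -0.87 (edgeR adjusted p = 0.00438) and *ska2* at -0.30 (edgeR adjusted p = 0.0392) and -0.49 (edgeR adjusted p = 0.0131) on the log2 scale.

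The sum of 9 ovary markers was 2.02 to 2.45 CPM in control and 4.12 to 4.98 CPM in *il11a*OE at 7 dpt, with 2 markers called higher, and 1.61 to 2.67 and 3.59 to 16 CPM at 7 mpt, with 1 called higher and *zp2.1* and *figla* at 0. Only 3 of the 9 could be tested at 7 dpt and 4 at 7 mpt. Most of the sum was *buc* and *zp3b*, while the mean of *bmp15* was lower in *il11a*OE, at 0.173 and 0.0707 CPM at 7 dpt. The 16 CPM was that of *il11a*OE replicate 2, and the other *il11a*OE libraries were at 3.59 to 6.38 CPM. The sum of 6 testis markers was 1.15 to 2.1 and 1.54 to 1.95 CPM at 7 dpt, with *spo11* at 0, and 0.745 to 1.93 and 3 to 5.57 CPM at 7 mpt, with 1 called higher. Of the testis markers 2 could be tested at each time point. The part of both lists in the changes of the mitotic genes was not tested.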
